A study of Mus musculus with 18 samples.

Results

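A set of genes of osteoclast biology and RANK signalling were followed through single-cell RNA-Seq libraries of mouse bone marrow (BM). They were chosen by name and make up 9 of the 20275 genes in the deposited count table, and all 9 were measured. C57B6/J mice were used at embryonic day 16.5 (E16.5), E18.5, the day of birth (P0) and in the adult, and the labels give no genetic change and no treatment. From each, hematopoietic progenitors (HPs) were sorted as CD45+ Lineage- Kit+ cells and stroma as CD45- Ter119- cells, and each library was made from cells pooled over several mice. HPs had 2 libraries at E16.5, and the remaining stages of HPs and all stages of stroma had 1 each, so that 5 HP and 4 stromal libraries with 56201 cells were analysed. The marrow came from the whole skeleton without the head in embryos and newborns, and from tibias, femurs, pelvis and spine in adults, so that stage and the bones sampled cannot be told apart. The gates limit what can be seen: mature osteoclasts carry CD45 and are large, so they belong in neither a Kit+ progenitor gate nor a CD45- gate, and the authors removed remaining blood cells from the stromal data. The question addressed here is where, among progenitors and stroma of each stage, the genes of the osteoclast and of its main signal were transcribed.

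Osteoclasts are the bone-resorbing cells of the skeleton and form by fusion of precursors of the monocyte and macrophage lineage. Their precursors carry the receptor RANK (encoded by Tnfrsf11a), which is engaged by the ligand RANKL (Tnfsf11) on mesenchymal or lymphoid cells, while the secreted decoy receptor osteoprotegerin (Tnfrsf11b) binds RANKL and keeps it from RANK. Signals from RANK induce the transcription factor NFATc1 (Nfatc1), which drives the genes of fusion and resorption. Among those, Dcstamp and Ocstamp encode membrane proteins needed for fusion, Atp6v0d2 encodes a subunit of the proton pump that acidifies the resorption pit, Ctsk encodes cathepsin K, the protease that degrades bone collagen, and Acp5 encodes tartrate-resistant acid phosphatase, the classical stain for osteoclasts. These last 5 genes are called effector genes below.

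In the GENCODE vM21 annotation of GRCm38, the build of the files, Ctsk lies at chr3:95499256-95509362 on the plus strand and Acp5 at chr9:22126727-22135711 on the minus strand. Atp6v0d2 lies at chr4:19876841-19922605, Ocstamp at chr2:165393760-165400405 and Tnfsf11 at chr14:78277445-78308043, all on the minus strand. Tnfrsf11a lies at chr1:105780718-105847981 on the plus strand. Dcstamp at chr15:39745930-39760938 (plus strand) and Tnfrsf11b at chr15:54250619-54278484 (minus strand) share a chromosome. Acp5 and Nfatc1 each overlap an annotated gene on the other strand, and neither of these antisense genes is in the count table. Unique molecular identifier (UMI) counts of a 3' library mark transcript ends and do not grow with transcript length. UMIs scaled to a common library total (CPM) were therefore set side by side between genes with no correction for length. Whether transcripts of different genes were captured equally well was not checked.

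Upstream sequence was at hand for 4 of the 9 genes (Ctsk, Acp5, Tnfrsf11a and Tnfsf11), as the 250 bases before each RefSeq start site in GRCm38.p6. The windows of Ctsk and Acp5 are shown because these are the effector genes with the most UMIs and, as described below, they were high in the same few HP cells while only Ctsk was also high in most stroma. They are written 5′ to 3′ on the strand of the gene, with Acp5 given for each of its 3 start sites, since the counts do not tell which was used. Capitals mark GGAAA (the core recognised by NFAT factors) and GAGGAA (the core recognised by PU.1, an ETS factor of myeloid cells) on either strand.
Ctsk, chr3:95498960-95499209: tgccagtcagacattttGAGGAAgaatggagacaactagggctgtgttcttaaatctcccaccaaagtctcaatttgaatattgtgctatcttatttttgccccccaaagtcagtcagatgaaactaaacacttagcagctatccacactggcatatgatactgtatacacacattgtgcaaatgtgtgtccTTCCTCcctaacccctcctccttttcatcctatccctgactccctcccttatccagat
Acp5, start site 1, chr9:22135747-22135996: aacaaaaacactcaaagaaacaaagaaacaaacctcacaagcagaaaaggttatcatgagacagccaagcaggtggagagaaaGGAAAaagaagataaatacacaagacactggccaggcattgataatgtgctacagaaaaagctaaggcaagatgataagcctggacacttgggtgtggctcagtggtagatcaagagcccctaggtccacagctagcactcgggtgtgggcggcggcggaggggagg
Acp5, start site 2, chr9:22131866-22132115: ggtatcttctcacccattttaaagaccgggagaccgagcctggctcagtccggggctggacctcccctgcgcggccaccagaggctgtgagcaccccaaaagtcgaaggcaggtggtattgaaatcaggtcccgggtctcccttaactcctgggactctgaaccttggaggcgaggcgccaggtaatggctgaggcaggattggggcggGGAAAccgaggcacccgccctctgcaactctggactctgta
Acp5, start site 3, chr9:22130599-22130848: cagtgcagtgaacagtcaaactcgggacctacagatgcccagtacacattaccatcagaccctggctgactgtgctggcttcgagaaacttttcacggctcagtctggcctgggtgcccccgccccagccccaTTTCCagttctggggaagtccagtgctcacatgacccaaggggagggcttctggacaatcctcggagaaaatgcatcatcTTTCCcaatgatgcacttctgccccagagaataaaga
The Ctsk window held 2 copies of GAGGAA, 233 bases before the start on the plus strand and 58 bases before it on the minus strand, and no GGAAA. Each Acp5 window held GGAAA, at 167 bases, at 41 bases, and at both 117 and 37 bases before its start. The Tnfsf11 window held GGAAA once, 117 bases before the start, and the Tnfrsf11a window held neither. TGANTCA, the AP-1 motif, was in none of them. Of 32851 windows of the same length in the reference, 55.6% held GGAAA, 23.25% held GAGGAA and 6.75% held TGANTCA on either strand, so these matches are common and are given only as a description.

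The 5 HP libraries held 13974733 to 127489333 UMIs in 560 to 6208 cells, and the 4 stromal libraries 91868751 to 194892476 UMIs in 6267 to 14084 cells. Median depth ran from 6747 UMIs per cell in adult HPs to 23291.5 in the first E16.5 HP library. A list of 5 pan-blood genes (Ptprc, Coro1a, Laptm5, Cd52, Cd53) summed to 1075 to 1915 CPM in HPs and 1.565 to 2.155 CPM in stroma, while 6 matrix genes of stroma summed to 9.20 to 44.8 CPM in HPs and 22685 to 83981 CPM in stroma. The stromal values are those left after the authors removed blood cells, so they do not check the sort. The E16.5 HP libraries differed in make-up: 6 macrophage genes summed to 1992 CPM in the first and 207 CPM in the second, and the cluster coded Mono/Mast gave 161 of 560 and 142 of 4752 cells.

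Several HP libraries shared cell barcodes. The E18.5 and adult HP libraries had 375 in common, the first E16.5 HP library shared 330 of its 560 barcodes with the adult one, and P0 HPs shared 225 with adult HPs and 153 with the first E16.5 library. Every other pair shared at most 83. In the E18.5 and adult pair the E18.5 cell of a shared barcode had a median of 117 times the UMIs of the adult cell, and in the E16.5 and adult pair the ratio was 47.1. Of 5985 adult HP cells, 788 shared a barcode and 641 of them were shallower than their partner by a factor of 10 or more, with a median of 535 UMIs. Levels and cell counts that move without such cells are given below.

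Among the effector genes, Ctsk and Acp5 had by far the most UMIs, and they were spread over the libraries in different ways. Ctsk stood at 10.7 and 1.10 CPM in the E16.5 HP pair, 28.6 CPM in E18.5 HPs, 17.4 CPM in P0 HPs and 0.321 CPM in adult HPs. In stroma it stood at 52.3, 58.0, 96.7 and 239 CPM from E16.5 to adult. Every stromal library was thus above every HP library, and counting intervals (exact Poisson, 95%, here and for all levels above 0, while a count of 0 is given with the limit that 3 UMIs set) of neighbouring stages in stroma did not meet. Acp5 had the opposite placing. It stood at 41.1 and 31.9 CPM in the E16.5 HP pair, 54.6 CPM in E18.5 HPs, 33.9 CPM in P0 HPs and 9.32 CPM in adult HPs, against 2.99, 4.52, 5.13 and 25.0 CPM in stroma. Fetal and newborn HPs were above all stroma, whereas adult HPs were below adult stroma. With a single library at most stages, these differences have no replicate check.

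The remaining effector genes were scarce and mostly of HPs before adulthood. Atp6v0d2 stood at 6.58, 0.470, 6.34, 2.88 and 0.0676 CPM in HPs in the same order, and at 0, 0.0178, 0.0154 and 1.19 CPM in stroma. The 0 of E16.5 stroma allows up to 0.0257 CPM (3 UMIs in that library). Adult stroma, with 109 UMIs, was the only stromal library in which Atp6v0d2 was above a few UMIs. Ocstamp had 15, 17, 106, 89 and 2 UMIs in the HP libraries, which made 1.07, 0.177, 1.63, 0.698 and 0.0338 CPM, and 0 to 18 UMIs in stroma. Dcstamp had 11, 2, 82, 58 and 1 UMIs in HPs and 1 to 7 in stroma. For both fusion genes, E18.5 HPs had the highest level, and the first E16.5 HP library followed with overlapping counting intervals.

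Cells with shared barcodes carried most effector transcripts of the first E16.5 HP library. Without every such cell, an alternative chosen after seeing the data, Ctsk stood there at 0.338 CPM, Atp6v0d2 at 0.338 CPM, Acp5 at 18.3 CPM (below adult stroma) and both fusion genes at 0, while Tnfrsf11a stood at 33.8 CPM and Nfatc1 at 34.5 CPM. In E18.5 HPs the levels were higher without these cells, at 38.7 CPM for Ctsk, 68.0 CPM for Acp5 and 11.6 CPM for Tnfrsf11a. In adult HPs Ctsk stood at 0.138 CPM, Tnfrsf11a at 0.380 CPM and Atp6v0d2 and Dcstamp at 0. With only the much shallower partners left out, the first E16.5 library lost no cell and kept Ctsk at 10.7 CPM. Adult HPs then kept 14 of 19 Ctsk UMIs (0.238 CPM) and 2 of 4 Atp6v0d2 UMIs (0.0340 CPM).

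**Figure D1:**
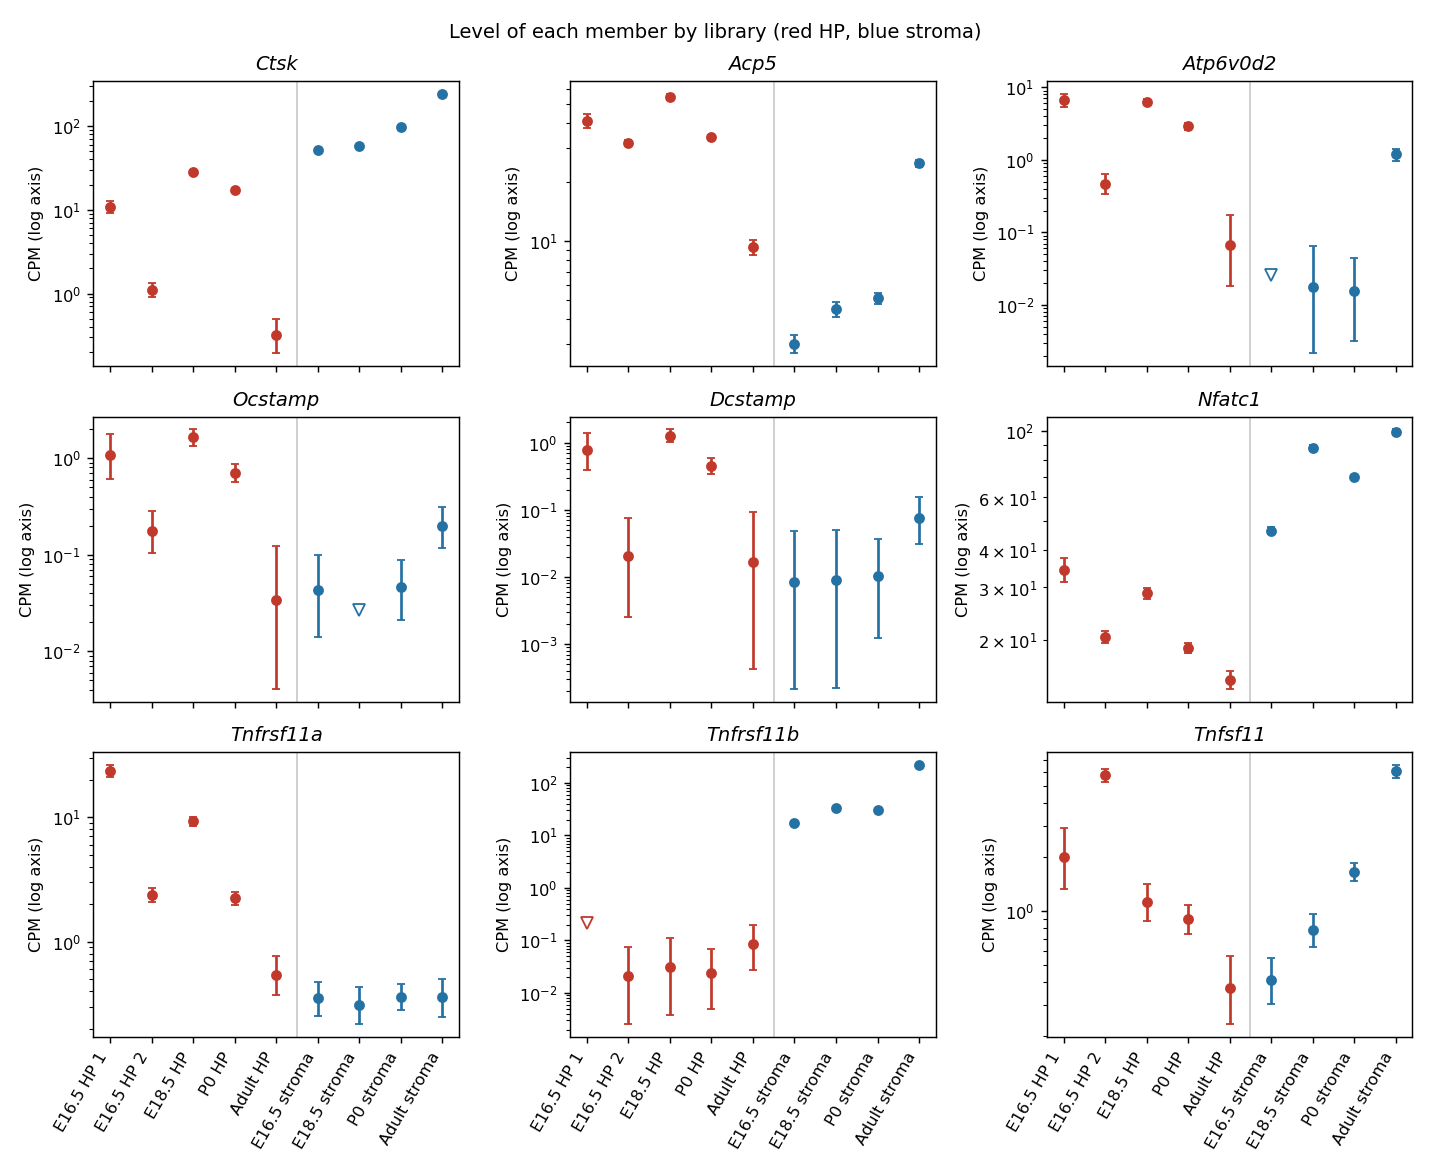
Level of each of the 9 genes by library, in CPM (UMIs scaled to a common library total) on a log axis, with HP libraries in red and stromal libraries in blue. Bars are exact Poisson 95% intervals, which cover counting error only, and open triangles stand at the level of 3 UMIs where a library held 0. Ctsk and Tnfrsf11b sit higher in all 4 stromal libraries than in any HP library, and Tnfrsf11a higher in HPs before adulthood, while the bar of adult HPs overlaps those of stroma.

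The receptor gene Tnfrsf11a was higher in HPs before adulthood than in stroma. Its levels were 23.5 and 2.38 CPM in the E16.5 pair, 9.24 CPM in E18.5 HPs, 2.23 CPM in P0 HPs and 0.541 CPM in adult HPs. Stromal libraries gave 0.351, 0.311, 0.359 and 0.359 CPM, which do not differ beyond their counting error. The interval of adult HPs, from 32 UMIs (0.370 to 0.763), overlapped that of adult stroma, from 33 UMIs (0.247 to 0.5045), so a difference between them was not detectable at this depth. Of the E16.5 libraries, the one richer in macrophage transcripts was the higher, and the part of that difference in make-up was not tested. Nfatc1 was detected at a moderate level everywhere, with 34.4, 20.4, 28.6, 18.8 and 14.7 CPM in HPs and 46.5, 87.8, 70.3 and 99.3 CPM in stroma. Each stromal library was above each HP library.

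The decoy receptor gene Tnfrsf11b was a stromal transcript. HP libraries held 0, 2, 2, 3 and 5 UMIs of it, whereas stroma gave 16.9, 33.8, 30.8 and 217 CPM. Adult stroma stood at 7.05 times the level of P0 stroma (6.85 to 7.26). Its ligand Tnfsf11 was present at low levels in both compartments and in the reverse order of stages. In HPs it stood at 2.00 and 5.73 CPM in the E16.5 pair, 1.13 in E18.5 HPs, 0.902 on the day of birth and 0.372 in adults, and in stroma at 0.411, 0.782, 1.65 and 6.02 CPM. From P0 to adult stroma the ratio was 3.64 (3.17 to 4.19) for Tnfsf11, 4.88 (4.53 to 5.26) for Acp5, 2.47 (2.42 to 2.52) for Ctsk and 1.41 (1.375 to 1.45) for Nfatc1, each from 1 library a stage. In whole libraries, fewer cells of a type and less RNA per cell cannot be told apart, and the cluster values below separate them in part.

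HPs and stroma were compared over all 9 libraries with stage as a term, in edgeR's quasi-likelihood test on UMIs summed by library. This contrast sets progenitors of blood against mesenchymal and endothelial cells, and 57.6% of 17043 genes tested differed at an adjusted p under 0.05 (26.5% higher and 31.1% lower in HPs). Of the 9 genes, Dcstamp did not pass the filter on low counts, and 3 of the other 8 were called, a share below that background. Tnfrsf11b was lower in HPs (adjusted p = 1.01e-05, edgeR), with a fold that rests on the few HP UMIs given above and is not quoted. Nfatc1 was lower in HPs by a log2 fold change of -1.78 (SE 0.32, adjusted p = 0.00338, edgeR) and Tnfrsf11a was higher by 3.39 (SE 1.10, adjusted p = 0.0336, edgeR). The call for Tnfrsf11a was lost, with log2 fold changes of 2.65 to 3.80, when any one of 5 libraries was left out (E18.5 HP, adjusted p = 0.122; P0 HP, 0.0777; E16.5 stroma, 0.0946; E18.5 stroma, 0.119; P0 stroma, 0.0734; edgeR).

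The effector genes did not pass in this fit. Ctsk was lower in HPs by -3.42 (SE 1.28) with an adjusted p of 0.0565 in edgeR, Acp5 higher by 2.38 (SE 0.88) with 0.0533, Atp6v0d2 higher by 6.60 (SE 2.84) with 0.0852, and Ocstamp higher by 3.42 (SE 1.72) with 0.129. These calls depended on the libraries and on the method. Without the adult HP library all 4 were called, with log2 fold changes of -2.51, 3.21, 8.22 and 4.57 (edgeR adjusted p of 0.0344, 0.000357, 0.00362 and 0.0186), and without the adult stromal library they were called too (edgeR adjusted p of 0.0280, 0.000264, 0.00288 and 0.0165). DESeq2 called the same 4 on all libraries (adjusted p of 0.00150, 0.00233, 2.76e-06 and 0.00944). These added calls are not weighed against all genes, of which the main fit already called 57.6%. Counts over all genes with a library left out are given below. With no stage term edgeR called Ctsk (-3.36, adjusted p = 0.0187), Acp5 (1.81, 0.0368) and Ocstamp (3.25, 0.0348) but not Atp6v0d2 (3.38, 0.114), and with no filter on low counts it called Acp5 (adjusted p = 0.0488). Tnfsf11 was not called (log2 fold change -0.29, SE 1.26, adjusted p = 0.860, edgeR), and its sign turned when a P0 or adult library was left out.

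Beyond these 9, the pathway was read through 4 gene lists in the same fit, with a median log2 fold change over all genes of -0.01 and, as above, 26.5% of all genes higher and 31.1% lower in HPs. The counts for osteoclast function and negative regulators are small and lie near those shares. Of 11 tested genes of osteoclast function, 4 were higher in HPs (Car2 by 5.46, Snx10 by 2.59, Ostm1 by 2.34 and Tcirg1 by 1.52), 2 were lower (Src by -1.83 and the calcitonin receptor gene Calcr, with 1 UMI in all HPs against 259 in stroma) and 5 were not called, among them Mmp9 (3.63, SE 1.58). The median was 0.06. These called genes act in acidification and vesicle traffic (Car2, Tcirg1, Ostm1, Snx10), and all are used by other cells as well. Of 26 genes of RANK signal transduction, 12 were higher and 3 lower in HPs, with a median of 0.74. The largest differences were those of immunoreceptor adaptors and myeloid regulators: Tyrobp by 11.73, Btk by 10.45, Spi1 (which encodes PU.1) by 10.17 and Fcer1g by 9.54. For such genes of blood cells the direction was set beforehand by the sort on CD45 and the removal of blood cells from stroma. The 3 lower genes were Fos (-4.99), Fosl2 (-2.77) and Map3k14 (-1.18). Of 7 negative regulators, 3 were higher (Irf8 by 4.16, Tnfaip3 by 2.49, Cyld by 0.57) and 2 lower (Lgr4 by -3.78, Bcl6 by -1.61), with a median of -0.35. The last list, of 9 secreted regulators and their receptors, was drawn up for stroma, so a lower level in HPs was to be foreseen. Of these, 7 were lower in HPs and Tgfb1 was higher by 2.23. The median was -7.30, the value of the parathyroid hormone receptor gene Pth1r. Among the lower genes, Pthlh was held by no HP cell against 5594 UMIs in stroma, at least 1305-fold lower by a floor of 3 UMIs over all HPs, and Wnt5a had 1 UMI in HPs against 10980 in stroma. Sfrp1 was lower by -9.70 and Sema3a by -8.15. Csf1, the growth factor of osteoclast precursors, was not called (-0.84, SE 0.77).

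Stages of HPs were set against the E16.5 pair, the only group with a spread, so that E18.5, P0 and adult share their controls and lone libraries are assumed to vary like that pair (1 residual degree of freedom). Of 16114 genes, 0.00621% were called at E18.5 (1 gene, 1047 at an unadjusted p under 0.05), 0.292% at P0 (47 genes, 1368 unadjusted; 0.168% higher and 0.124% lower) and 2.35% in the adult (378 genes, 2462 unadjusted; 1.35% higher and 0.993% lower), by edgeR. Tnfrsf11b was filtered out, and none of the other 8 members was called at any stage. The adult values were the furthest from E16.5, with log2 fold changes of -3.94 (SE 1.38) for Ctsk, -5.41 (SE 1.83) for Atp6v0d2, -4.35 (SE 1.44) for Tnfrsf11a, -3.24 (SE 1.09) for Tnfsf11 and -1.78 (SE 0.50) for Acp5, at adjusted p of 0.151 to 0.244 (edgeR). DESeq2 called all 5 of these, and so did edgeR without the filter on low counts, which also called Ctsk at E18.5 (2.28) and Tnfrsf11a at P0 (-2.45). Both alternatives also called more genes in all than the main fit at each of these stages, as given below. Without the first E16.5 library the adult values were -1.57 for Ctsk, -2.30 for Atp6v0d2 and -1.96 for Tnfrsf11a, and without the second -4.73, -5.93 and -5.15, with no test. The lists gave 4 calls in all: Car2 at P0 (4.63) and in the adult (6.11), Ckb (-4.87) and Mitf (-3.91) in the adult.

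At the level of cells, HP transcripts of the effector genes other than Acp5 were concentrated in very few. The 10 highest cells held 98.7%, 93.3%, 85.0% and 71.6% of the Ctsk UMIs of the first and second E16.5, the E18.5 and the P0 HP library, and a single E18.5 cell held 389 of 1854. In the 4 stromal libraries the 10 highest cells held 1.555% to 3.098% of the Ctsk UMIs. Acp5 was spread over more HP cells: its 10 highest cells held 62.7%, 6.32%, 33.8% and 30.4% in the same HP libraries. Levels were therefore read by the authors' cluster codes, of which there were 74 in HPs and 66 in stroma when counted by stage. The clusters were made from the same counts, so the values below describe them and test nothing.

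At E18.5 the cluster coded DC2, with 43 of 3477 cells, held 97.1% of the HP Ctsk UMIs (1552 CPM), 94.9% of those of Atp6v0d2 (336 CPM), 89.0% of Dcstamp (63.0 CPM), 84.9% of Ocstamp (77.6 CPM) and 60.6% of Acp5 (1850 CPM). It also had the highest HP levels of Nfatc1 (373 CPM) and Tnfrsf11a (132 CPM). Of the 43 cells, 23 held a Ctsk UMI, whereas 3 of 152 did in the cluster coded Bcell1 of the same library, where B lineage cells should lack the transcript, at median depths of 26272 and 22806 UMIs. The 10 genes with the largest fold over other HPs were Ctsk, Atp6v0d2, Dcstamp, Bdh2, Ocstamp, Nrp2, Prdm1, Mmp9, Acp5 and Myo1e. None is in the dendritic list used below, and the code is used here only as a name.

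At P0 the cluster coded Mono1, with 225 of 6208 cells, took the same place. It held 95.85% of the HP Ctsk UMIs (643 CPM), 94.8% of Atp6v0d2 (105 CPM), 86.2% of Dcstamp (15.1 CPM), 78.65% of Ocstamp (21.2 CPM) and 59.0% of Acp5 (770.5 CPM), with Nfatc1 at 110 CPM and Tnfrsf11a at 47.5 CPM. Its leading genes mixed osteoclast genes (Ctsk, Atp6v0d2, Mmp9, Dcstamp) with macrophage genes (Lyve1, Cbr2, Fcna, Cd163, Folr2). At E16.5 the shares fell on UD2 and Mono/Mast. UD2, with 65 cells and a median of 1049 UMIs, held 54.1% of the Ctsk UMIs at 356 CPM, with Acp5 at 591 and Atp6v0d2 at 134 CPM. The first library gave 29 of these cells and the second 36. The Ctsk level of UD2 rests on 1 cell in each library, which held 81 of 83 UMIs in the first and 50 of 55 in the second. Without cells of shared barcodes the first library had 0 Ctsk UMIs in UD2, in 23 cells, and the second kept all 55. Only 7 of the 65 cells held Ctsk, and its leading genes (Sostdc1, Ptn, Meg3, Dcn) were not those of blood. Mono/Mast, led by Cbr2, Timd4, Lyve1 and Folr2, held another 40.4% of Ctsk at 13.6 CPM, with 58 of 65 UMIs in 1 cell of the first library and 37 of 38 in 1 cell of the second. Without cells of shared barcodes, 1 and 38 of these UMIs remained. In adult HPs there were 19 Ctsk UMIs in all.

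**Figure D2:**
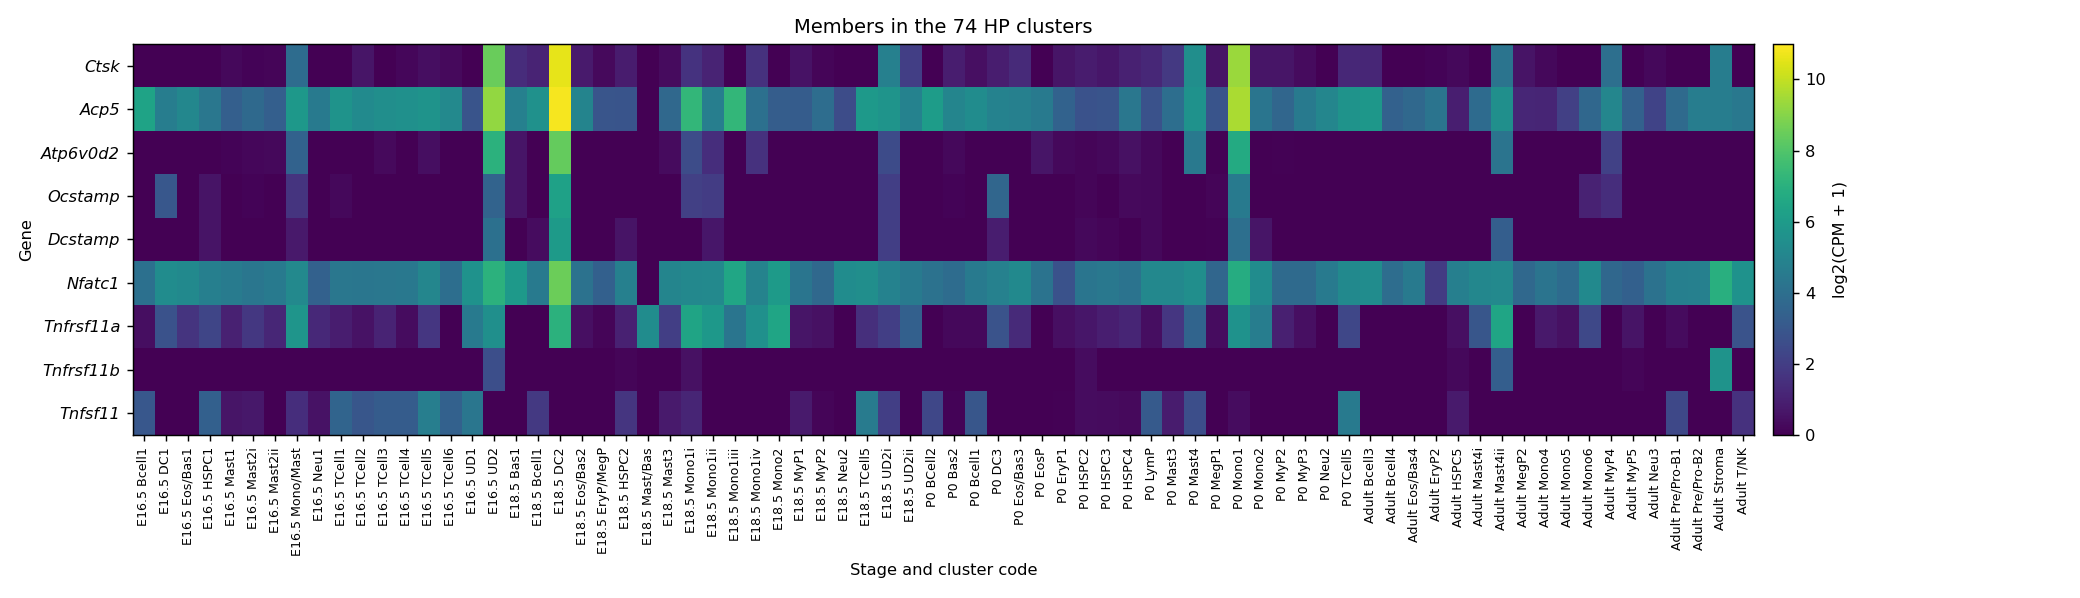
Heat map of the 9 genes (rows) in the 74 HP clusters (columns, by stage and cluster code), as log2(CPM + 1). Ctsk, Acp5 and Atp6v0d2 are bright together in UD2 at E16.5 (where 1 cell of each library holds most Ctsk UMIs), DC2 at E18.5 and Mono1 at P0. Ocstamp and Dcstamp are dimmer there, at 10.3 and 15.5 CPM in UD2, 77.6 and 63.0 in DC2 and 21.2 and 15.1 in Mono1. Acp5 and Nfatc1 are present at a low level in nearly every cluster.

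Acp5 and Nfatc1 were each detected in 73 of 74 HP clusters, with medians of 21.7 and 22.3 CPM, Tnfrsf11a in 58 and Ctsk in 49, and each of the others in 8 to 36. Outside the clusters described above, Acp5 was highest in E18.5 Mono1iii and Mono1i (156.5 and 153 CPM) and in the E16.5 cluster Bcell1 (81.8 CPM), where 126 of 209 cells held it. In that cluster the other 4 effector genes were at 0 UMIs. Clusters with T cell codes stood lower in the second E16.5 library, at 34.8 to 49.6 CPM. They held many of its 3055 Acp5 UMIs, with 556 in TCell3, 535 in TCell1 and 422 in TCell2. Outside the clusters described in the paragraphs above, Tnfrsf11a was highest, at E18.5, in clusters with monocyte codes. There it stood at 88.25 CPM in Mono2, 84.05 in Mono1i and 57.0 in Mono1ii, which held no more than 10.8% of the Acp5 UMIs each, and at E16.5 it stood at 51.8 CPM in Mono/Mast, which held 70.4% of its UMIs. The E16.5 libraries gave 75.1 CPM (66.7 to 84.2) and 27.5 CPM (22.4 to 33.4) in that cluster, so a difference between them remained within it. In the adult, Tnfrsf11a had 32 UMIs, and 10 of these fell in Mast4ii, a cluster of 120 cells with a median of 798 UMIs.

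To see whether effector genes occurred in the same cells, cells with a UMI of at least 3 of the 5 were counted. The first E16.5 HP library had 8 such cells of 560 (1.43%, exact binomial interval 0.619 to 2.795), the second 2 of 4752, E18.5 HPs 28 of 3477 (0.805%, 0.536 to 1.16), P0 HPs 38 of 6208 (0.612%, 0.434 to 0.839) and adult HPs 2 of 5985. In stroma there were 0 of 8226 at E16.5, which allows a share of up to 0.0365% by a limit of 3 cells, 0 of 6642 at E18.5 (up to 0.0452% by the same limit), 2 of 14084 in newborns and 40 of 6267 in adults (0.638%, 0.456 to 0.868). All 28 cells at E18.5 were in DC2 and 36 of 38 at P0 in Mono1. Transcripts of all 5 genes were found in 14 cells at E18.5, 13 at P0 and 2 at E16.5. No stromal cell had more than 3.

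**Figure D3:**
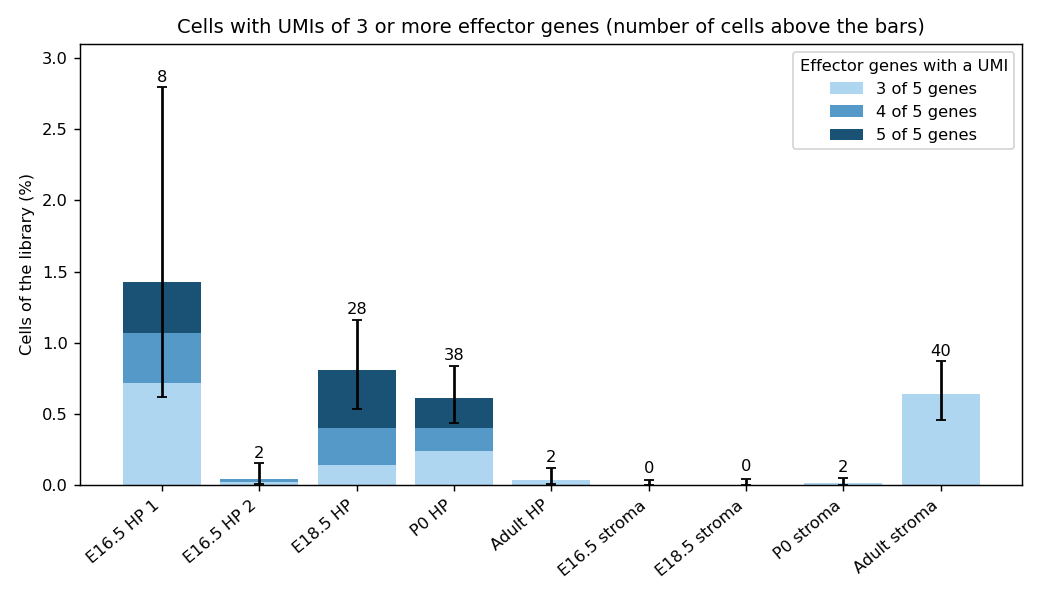
Share of the cells of each library with UMIs of at least 3 of the 5 effector genes, in percent, with bars split by how many of the 5 were found and the number of cells above. Error bars are exact binomial 95% intervals, or end at the share of 3 cells where there were none. Cells with 4 or 5 of the genes occur in HPs before adulthood only, and the 40 cells of adult stroma all have 3.

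Depth and shared barcodes touch these counts. The cells counted had median depths of 35805.5 and 22208.5 UMIs in the first and second E16.5 HP library, 27477.5 at E18.5 and 24580.5 at P0, against 23291.5, 18831, 12364 and 19447.5 in their libraries. With every cell thinned to 2000 UMIs, 0.558% of cells in the first E16.5 library, 0.648% at E18.5 and 0.237% at P0 had at least 3 of the genes, and 0.0162% in adult stroma. All 8 cells of the first E16.5 library shared a barcode with another library. The 2 cells of adult HPs had 1332 and 1333 UMIs. The first shared its barcode with an E18.5 cell in DC2 (608 UMIs) and a P0 cell in Mono1 (907 UMIs), the second with an E18.5 cell in UD2i (592 UMIs) and a P0 cell in Mast4 (950 UMIs). Of the 28 and 38 cells, 3 and 2 shared a barcode. With only partners shallower by a factor of 10 or more left out, the first E16.5 library kept all 8 cells and adult HPs kept both of theirs. Without any cell of a shared barcode, 0 of 226 cells remained in the first E16.5 library and 0 of 5197 in adult HPs, while the second E16.5 library kept both of its cells (of 4676), E18.5 kept 25 and P0 kept 36.

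Genes that played no part in choosing these cells showed what else they transcribed. Mmp9, the gelatinase of osteoclasts, stood at 372, 1475 and 1097 CPM in the cells of the first E16.5, the E18.5 and the P0 HP library, against 1.97, 10.8 and 2.10 CPM in other cells of each. Nfatc1 stood at 281, 411 and 269 CPM against 29.2, 24.1 and 16.9. Tnfrsf11a stood at 137, 115 and 70.7 CPM against 21.2, 7.97 and 1.71, and Prdm1, a repressor that acts against the inhibitors of NFATc1, at 168, 173 and 83.2 CPM against 1.83, 1.73 and 0.972. The receptor, the transcription factor and the effector genes were thus found together in these cells. In the same order of libraries, the cells held only 11.85%, 14.7% and 23.9% of the Tnfrsf11a UMIs. Of the Nfatc1 UMIs they held 16.7%, 16.9% and 10.8%, so most transcripts of both genes lay in other cells. Tnfsf11 and Tnfrsf11b were at 0 UMIs in all these cells.

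By a rule of at least 2-fold on CPM + 1, 7 of 10 measured genes of osteoclast function were higher in the E16.5 cells, where 9.01% of all genes were, 8 of 12 at E18.5 (6.51% of all genes) and 8 of 13 at P0 (6.08%). At least 2-fold lower were 2, 0 and 0 of them, where 19.6%, 18.5% and 9.14% of all genes were. Src, the kinase needed for the ruffled border, stood at 38.6, 105 and 40.55 CPM at E16.5, E18.5 and P0 against 11.8, 2.22 and 1.95 in other cells. Tcirg1, a proton pump subunit, stood at 94.75, 166 and 149 CPM against 19.9, 24.0 and 21.3. Ckb, brain creatine kinase, was higher in the E18.5 and P0 cells (350 and 306 CPM against 49.8 and 17.0) but lower in the E16.5 cells (94.75 against 235 CPM). Markers of the late osteoclast had few UMIs. Calcr had none in any of the 3 groups of cells. Oscar had none at E16.5 and E18.5 and 5 at P0 (5.20 CPM against 0.0474 in other cells). Siglec15 had 0, 3 and 1 UMIs at E16.5, E18.5 and P0, which made 3.93 CPM against 0.0468 at E18.5 and 1.04 against 0.0237 at P0. By the 2-fold rule Oscar at P0 and Siglec15 at E18.5 are among the genes counted as higher. Itgb3 stood at 0, 7.86 and 6.24 CPM against 4.38, 8.41 and 3.335. Of 26 RANK signalling genes, 10, 9 and 11 were at least 2-fold higher and 2, 0 and 0 at least 2-fold lower. Csf1r, the receptor for macrophage colony-stimulating factor, stood at 344, 312 and 191 CPM against 152, 74.95 and 23.1 in other cells, and Spi1 at 446, 582 and 522 CPM against 163, 156 and 152.5. Other cells, here and for the lists, are those of the whole library, so this contrast does not set the cells apart from others of their clusters. Csf1r stood at 376 CPM in all of E16.5 Mono/Mast, 287 in all of E18.5 DC2 and 285 in all of P0 Mono1. Spi1 stood at 566 CPM in DC2 and 409 in P0 Mono1. Among 7 negative regulators 0, 0 and 3 were at least 2-fold higher at E16.5, E18.5 and P0, and 2, 3 and 0 at least 2-fold lower. Irf8 stood at 66.7 CPM in the E16.5 cells against 63.8 in other cells, at 6.55 against 73.0 at E18.5 and at 30.2 against 44.95 at P0, with overlapping counting intervals at E16.5.

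Transcripts of other cell types differed between the 3 groups. The 6 macrophage genes summed to 1832 CPM in the E16.5 cells, 347 at E18.5 and 433 at P0, against 1995, 791 and 202 CPM in other cells. The members of that list did not all differ in the same direction. C1qa, of the complement, stood at 537, 5.24 and 69.7 CPM against 502, 230 and 60.8, whereas Cd68, a lysosomal protein gene, stood at 182.5, 318 and 225 CPM against 104.5, 41.65 and 13.1. The dendritic list of 7 genes summed to 23.6 CPM at E18.5 against 472.5 in other cells, with Flt3, Xcr1 and Siglech at 0, but to 1207 CPM against 1129 at E16.5 and 318 against 197 at P0. The largest part of the E16.5 sum was Cd74 (790 CPM), found in 5 of 8 cells. All 117 H2-Aa UMIs of the E16.5 cells (411 CPM) lay in 1 of 8, with Xcr1, Siglech and Zbtb46 at 0. At P0 H2-Aa was found in 3 of 38 cells, while Cd74 (226 CPM) was found in 10 of the 36 that lay in Mono1. A list of 5 mast cell genes summed to 24.9 CPM at E18.5 (1459 in other cells), 2730 at P0 (1167) and 3369 at E16.5 (35689), and at P0 its members Cma1 and Cpa3 were each found in 8 of 38 cells. Kit, the antigen of the gate, stood at 2.62 CPM at E18.5, 75.9 at P0 and 63.2 at E16.5, against 129, 154 and 354 CPM in other cells. The part of these transcripts in the results was not tested.

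Within the 2 clusters that held them, cells with fewer than 3 effector genes looked different. In P0 Mono1, 189 such cells had Ctsk at 20.5 CPM, C1qa at 1227.5 and the mannose receptor gene Mrc1 at 310 CPM, against 69.7 and 3.12 CPM for the last pair in the 38 cells of that library. Tnfrsf11a stood at 38.1 CPM in them. In E18.5 DC2 the other 15 cells had no Ctsk UMI, with Acp5 at 593, Nfatc1 at 300, Tnfrsf11a at 164 and C1qa at 674 CPM. Receptor and Nfatc1 transcripts were thus present in DC2 cells that held no Ctsk. The effector genes chose the cells, so their own levels are a description.

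The 40 cells of adult stroma were of another kind. They fell in F8 (19 cells), F10 (13), Osteo (3), F11 (2), C9, CARs and F13, and each held Ctsk and Acp5 with 1 further gene, which was Atp6v0d2 in 35 cells. These genes chose the cells, so their levels there are not set against other cells. In these data, from which the authors had removed blood cells, all 5 pan-blood genes were at 0 UMIs in them, as were Tyrobp, Csf1r and Tnfrsf11a, and Mmp9 was at 1.29 CPM. The 6 stromal matrix genes summed to 80843 CPM against 84008 in other cells, and 5 fibroblast genes to 40998 against 16161. Of 12 measured genes of osteoclast function, 1 was at least 2-fold higher and 2 lower (background 4.61% and 12%).

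In stroma Ctsk was broadly transcribed, with a median of 44.0 CPM over the 66 clusters and 1 cluster at 0. It was highest in adult F13 (751 CPM, 68 of 70 cells), F11 (654), Osteo (543), F8 (478) and F12 (402), followed by P0 F2 (393) and F5 (365) and E18.5 F3ii (278.5) and F2 (261). F13 and F11 were apart by more than their counting intervals (705 to 799 and 630 to 678), and so was each step down to F12, whose interval (376 to 429) met that of P0 F2 (383 to 404). Acp5 was detected in 60 of the 66 clusters, and its library level was highest in the adult. There it stood at 83.8 CPM in F13, 71.7 in F10, 53.8 in Osteo and 38.4 in F8, and at most 34.0% of its adult UMIs lay in one cluster (F10). Atp6v0d2 followed it, with 54 of 109 adult UMIs in F8 and 36 in F10. Ocstamp and Dcstamp had at most 5 UMIs in any stromal cluster.

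Nfatc1 had a different home in stroma, in clusters coded C with a number. It stood at 182 CPM in adult C10, 176 in C9 and 151 in C11, at 166 and 162.5 in E18.5 C6 and C7, at 129.6 in P0 C8 and at 114 in E16.5 C3. C10 and C9 in the adult did not differ beyond their counting intervals, nor did C6 and C7. Tnfrsf11a was low in every stromal cluster: the highest was adult P4 at 6.61 CPM (11 UMIs), and the clusters coded AECs, SECs and ECs gave 3.19 to 4.57 CPM with overlapping intervals. Among clusters coded F, E16.5 F1 and E18.5 and P0 F3i held 51.2%, 54.3% and 47.1% of the stromal Tnfrsf11a UMIs of their stage, at 1.64 to 2.38 CPM.

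**Figure D4:**
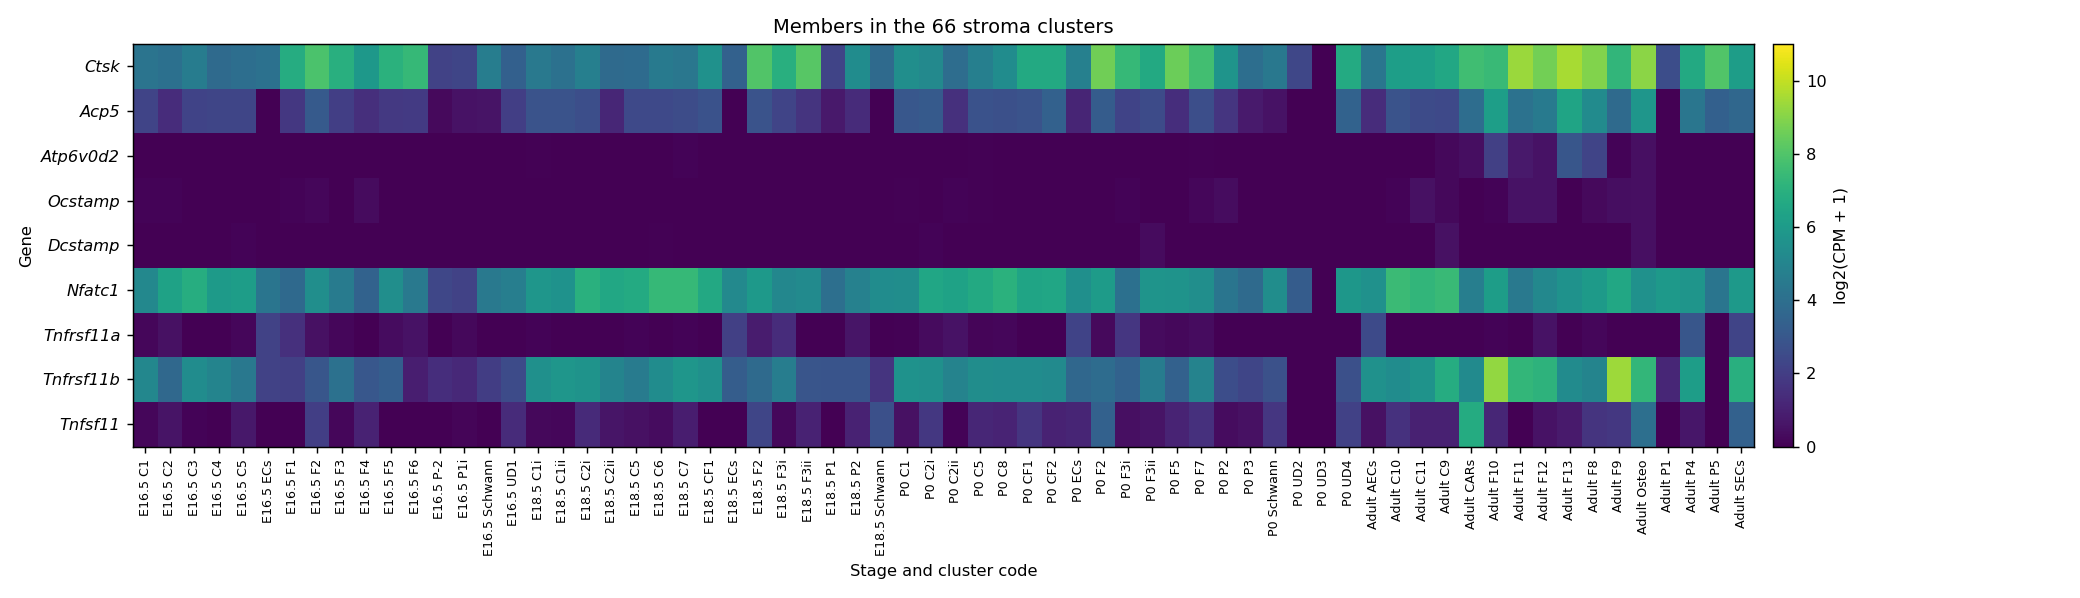
Heat map of the 9 genes (rows) in the 66 stromal clusters (columns, by stage and cluster code), as log2(CPM + 1) on the same colour scale as for HPs. Ctsk is bright in F and Osteo codes, Nfatc1 in C codes, Tnfrsf11b in adult F9 and F10 and Tnfsf11 in adult CARs, while Atp6v0d2, Ocstamp and Dcstamp stay dark.

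Ligand and decoy receptor were transcribed by different stromal clusters. Tnfrsf11b was highest in adult F9 (672 CPM, 42.3% of its adult UMIs) and F10 (599 CPM, 32.8%), followed at a distance by F11 and Osteo (both 153 CPM), F12 (138) and SECs (121). Before adulthood no cluster was above 54.3 CPM (E18.5 C7). Tnfsf11 was highest in adult CARs, the code for CXCL12-abundant reticular cells, at 108 CPM (96.9 to 121). These 359 cells were 5.73% of adult stroma and held 325 of its 553 Tnfsf11 UMIs. Osteo followed at 15.3 CPM and SECs at 9.705, and before adulthood the highest well-counted level in each stage was that of F2, with 9.71 CPM at P0, 3.97 at E18.5 and 3.11 at E16.5. F2 held 41.0%, 46.6% and 47.9% of the stromal Tnfsf11 UMIs of those stages. E18.5 Schwann cells gave 5.48 CPM from 5 UMIs.

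The balance of the pair was read as the share of Tnfsf11 among the UMIs of both genes, with exact binomial intervals. E16.5 stroma gave 2.37% (1.75 to 3.13), E18.5 stroma 2.26% (1.82 to 2.78), P0 stroma 5.095% (4.57 to 5.67) and adult stroma 2.70% (2.48 to 2.93), so decoy UMIs outnumbered ligand UMIs by 41.25, 43.2, 18.6 and 36.1 to 1. P0 stood above the other stages, which did not differ beyond counting error. Within clusters the balance was far wider. It was 74.4% (70.0 to 78.4) in adult CARs, 41.25% in P0 F2, 31.5% in E16.5 F2 and 23.6% in E18.5 F2, against 9.11% in Osteo, 0.366% in F9 and 0.214% in F10. Ligand UMIs were in the majority in adult CARs and in E18.5 Schwann cells, the latter with 5 UMIs against 2.

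**Figure D5:**
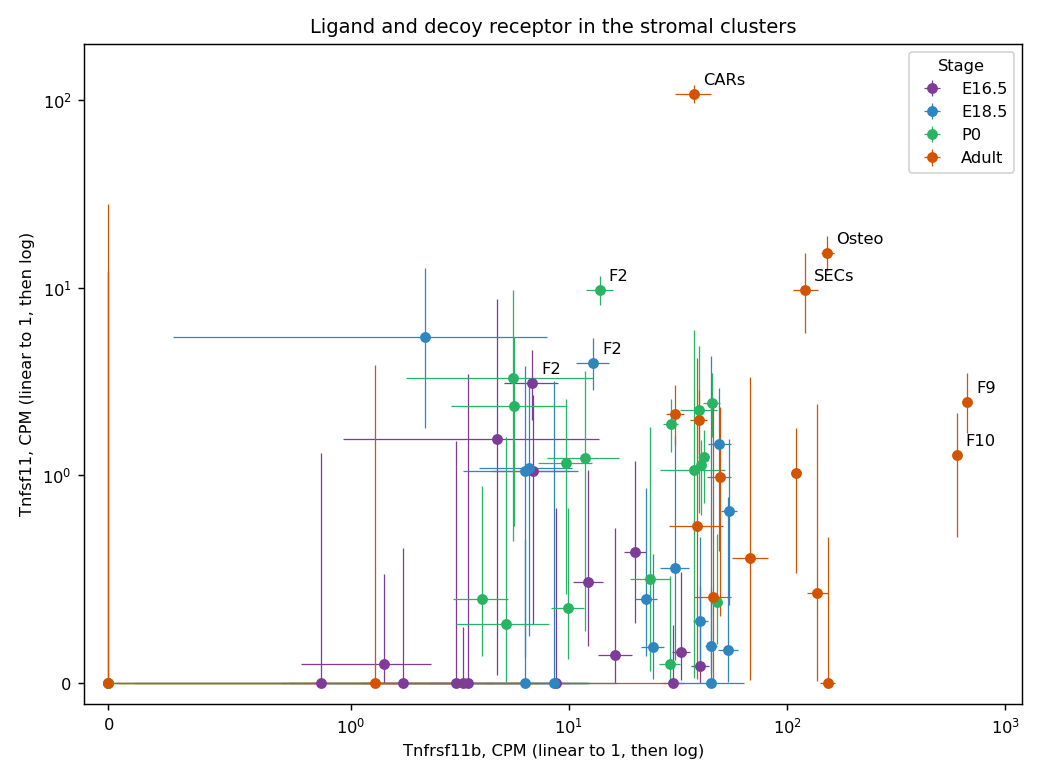
Levels of Tnfrsf11b (x axis) and Tnfsf11 (y axis) in the stromal clusters, in CPM, on axes that are linear up to 1 and logarithmic above, with exact Poisson 95% intervals (to the level of 3 UMIs where a cluster held 0) and colours for stage. Adult CARs stand alone at the top with 108 CPM of the ligand gene, and adult F9 and F10 at the right with 672 and 599 CPM of the decoy gene.

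HPs also transcribed the ligand, mostly in clusters with T cell codes. Tnfsf11 was highest in the cluster coded TCell5 at all 3 stages before adulthood, with levels of 25.0 CPM (E16.5), 22.7 CPM (E18.5) and 21.5 CPM (P0) and overlapping intervals. The E16.5 libraries gave 39.8 CPM (19.9 to 71.2) in 13 cells and 23.5 CPM (18.0 to 30.01) in 186 cells. At E16.5, UD1 (18.7 CPM), TCell1 (10.65), TCell6 (9.62), HSPC1 (9.41), TCell4 (8.29) and TCell3 (8.19) followed. TCell1, TCell6 and TCell4 had cells in the second E16.5 library only. UD1 had 3 cells in the first and 76 in the second, and TCell3 had 4 and 481. The levels of these clusters thus rest on the second library. E16.5 UD2 and E18.5 DC2 held no Tnfsf11 UMI and P0 Mono1 held 1. In adult HPs there were 22 Tnfsf11 UMIs in all.

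Across the 135 clusters of at least 50 cells, the genes most like each member were found by Pearson's r of log2(CPM + 1), a description over clusters that share libraries and depth. The size limit left out 5 of 140 clusters, among them E18.5 DC2 with 43 cells, where all 5 effector genes were at their highest HP level. Ctsk was most like the matrix and mesenchyme genes Dcn (r = 0.89), Col1a1 (0.89) and Prrx1 (0.89), and Tnfrsf11b like Prelp (0.94), Chad (0.93) and Anxa8 (0.93). Tnfrsf11a was most like Ms4a6d (0.84), C1qc (0.83) and Ms4a7 (0.83). Dcstamp was most like Atp6v0d2 (0.79), Mmp9 (0.58) and Ccl24 (0.57), Ocstamp like Bcl2a1a (0.66), Ifi205 (0.64) and Atp6v0d2 (0.64), and Atp6v0d2 like Serpinb8 (0.69), Lyve1 (0.63) and Slc37a2 (0.61), though Ocstamp and Dcstamp had only 171 and 92 UMIs over these clusters. Acp5 was most like Pstpip1 (0.67), A630001G21Rik (0.65) and Pitpna (0.64), Nfatc1 like P2ry10b (0.72), Ier2 (0.70) and Trps1 (0.70), and Tnfsf11 like Podnl1 (0.66), Tcf7 (0.61) and Prrt1 (0.57). Between members, r was 0.79 for Ctsk with Tnfrsf11b and -0.09 for Ctsk with Acp5, DC2 not included.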

How the data were processed

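Single-cell RNA-Seq libraries of HPs and stroma (10x Chromium 3' v3.1) were analysed from the table of UMI counts per gene and cell that the authors deposited, with their cluster codes. Per the submitters' processing notes the tools and build were Cell Ranger 3.1.0, Seurat 3.1.5, R 4.0 and mm10. The authors filtered genes and cells by detection, UMIs and mitochondrial share, left out the cells with the most genes or UMIs of each sample as putative doublets, and removed blood cells from stroma. No doublet caller was run here. The antibody counts, and 12 per-cell value columns of the metadata, were not used.

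Members, lists and tests were chosen with earlier results of these data known. Levels are UMIs summed per library or cluster and divided by all UMIs (CPM), with exact Poisson or Clopper-Pearson 95% intervals, which cover counting error only. Library sums were tested with edgeR 4.0.16 (TMM, quasi-likelihood, Benjamini-Hochberg, threshold 0.05) in R 4.3.3, and SE is the log2 fold change divided by the square root of F. The labels do not say that libraries came from separate animals, so p-values measure the spread between these libraries. Within the E16.5 HP pair that spread may be technical. In the fit of HPs against stroma it also holds any change of the gap between HPs and stroma from stage to stage. Alternatives were DESeq2 1.42.0 and its size factors, no filter, no stage term, libraries left out, other denominators and cells, thinning to 2000 UMIs, and cells with shared barcodes removed. All members were named, with the 3 genes most like each and, from each list, up to 4 with the largest change each way. Some genes of the cells with effector transcripts were named after their values were seen. The test was checked on simulated data: of genes changed 8-fold, 98.4% were recovered between HPs and stroma (17570 genes) and 43.4% between P0 and E16.5 HPs (15006 genes). In that simulation all genes had the same dispersion between libraries, few genes changed and stages did not differ. These shares therefore do not give the power for the members, several of which varied more between libraries. Gene positions are from GENCODE vM21 and upstream windows from RefSeq. Python 3.11.15 with scipy 1.17.1 was used. A result for 1 list gene is not reported here.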

Additional observations from a re-analysis of the deposited data

Results flagged for a closer look

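Among the 4 stromal libraries, the adult library stood far from the other 3 for 4 of the genes, with a gap to its nearest neighbour that exceeded Dixon's 95% value for 4 samples. These were Acp5 at 25.02 CPM (gap 0.903 of the range), Atp6v0d2 at 1.186 CPM (0.985), Dcstamp at 0.0762 CPM (0.975, from 7 UMIs) and Tnfrsf11b at 217.1 CPM (0.916). Of 18 groups examined (9 genes in HPs and in stroma), these 4 were marked, and chance marks about 1 in 20. Each group here spans stages rather than replicates of a single stage, so a library apart from the others is also a stage apart from them.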

How the results depend on the processing

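HPs and stroma were matched by stage, as a term of their fit with 4 residual degrees of freedom, and without it 10449 genes were called. By replicate number, no paired analysis was possible because the groups compared share fewer than 2 numbers. Between HPs and stroma the count of genes called was 9819 and ranged from 6954 to 10129 when a library was left out. For Tnfsf11 the log2 fold change turned from -0.29 to 0.15 without P0 HP, 0.84 without adult HP, 0.18 without P0 stroma and 0.83 without adult stroma, and for Nfatc1 at E18.5 from -0.02 to 0.0013 with no filter on low counts. With 1 E16.5 HP library left out, 7 of 48 values turned sign, with no test. Without the first these were Tnfrsf11a (-0.53 to 1.80) and Nfatc1 (-0.02 to 0.34) at E18.5, and Atp6v0d2 (-0.21 to 2.50) and Acp5 (-0.10 to 0.03) at P0. Without the second they were Atp6v0d2 at E18.5 (0.83 to -0.10), and Ocstamp (0.32 to -0.55) and Dcstamp (0.50 to -0.71) at P0. The cause was not tested. Counts of genes called against E16.5 HPs depended most on the method. At E18.5 there was 1 (higher), 35 with DESeq2 size factors (21 higher, 14 lower), 485 with no filter (219 and 266) and 342 with DESeq2 (134 and 208). At P0 there were 47 (27 and 20), then 78 (40 and 38), 713 (276 and 437) and 558 (187 and 371). In the adult there were 378 (218 and 160), 1515 with no filter (684 and 831) and 1133 with DESeq2 (425 and 708).

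Ratios of adult to P0 stroma without mitochondrial, ribosomal protein genes and Gm42418 in the denominator were 2.05 for Ctsk, 4.05 for Acp5, 1.17 for Nfatc1, 5.86 for Tnfrsf11b and 3.03 for Tnfsf11. With the mean of the cells' CPM they were 5.36 for Acp5, 1.17 for Nfatc1, 7.43 for Tnfrsf11b and 4.52 for Tnfsf11, and the share of Tnfsf11 was 6.04% in P0 and 3.77% in adult stroma.

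Cells with at least 2 of the effector genes made up 0.379% of the second E16.5 HP library, 1.58% of E18.5 and 1.48% of P0 HPs, and 1.71%, 2.80%, 3.47% and 13.2% of stroma from E16.5 to adult. At least 4 were held by 0.370% of P0 HPs and 0 adult HP, P0 stromal or adult stromal cells. Of the 4 genes without Acp5, at least 3 were held by 0.370% of P0 HPs and by 0 cells of adult HPs, P0 stroma and adult stroma, and without Ctsk by 0 cells of P0 and adult stroma, where every cell counted had exactly 3 genes. Thinning, over cells with at least 2000 UMIs only, gave 0.558% in the first E16.5 library, 0.237% at P0, 0.0162% in adult stroma and 0 in adult HPs and P0 stroma. Without every cell of a shared barcode, an alternative chosen after seeing the data, the first E16.5 library and adult HPs had 0.

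Of 405 library levels recomputed, 113 moved by more than counting error, 56 of them with the other denominator. Of 184 log2 fold changes of members under tested alternatives, 146 kept direction and call, 28 became called, 5 lost the call and 5 turned sign. Of the 48 without a test, 18 moved by more than their SE. Genes with few UMIs (Ocstamp, Dcstamp, and Tnfrsf11b in HPs) are limited by depth.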
